A study of Mus musculus with 31 samples.

Results

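The 30 genes described here are genes of the oligodendrocyte lineage and of myelin, taken by gene symbol from the 55401 genes of the deposited tables. They fall into 21 genes used by mature, myelin-making oligodendrocytes, 5 transcription factors of the lineage and 4 genes of precursors and newly formed cells. All 30 passed the filter on low counts, which left 14490 genes in the tests. They are genes best known from another glial type and were read in 12 RNA-seq libraries of sorted mouse astrocytes. The titles of these libraries all begin with SPF. The mice were female C57Bl/6 animals of 10 weeks that received interleukin-1β at 100 ng/mL with TNF-α at 50 ng/mL, or PBS, in the lateral ventricles of the brain.

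There were 4 groups of 3 libraries. In the 2X cytokine group mice had the cytokines and were injected with them again on day 7, and in the 2X PBS group both injections were PBS. In the 1X cytokine and 1X PBS groups the only injection was the one on day 7. Astrocytes were sorted 18 to 24 h after the last injection in every group. One label field names TNF-α alone, the labels do not name the sort markers, and nothing says whether a library is 1 animal, so p-values measure only the spread between libraries. The 19 ATAC-seq samples of the series are not analysed here.

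Oligodendrocytes wrap axons of the central nervous system in myelin, a stack of compacted membrane that is rich in galactolipids and held together by a small set of abundant proteins. Precursors marked by Pdgfra differentiate through a short newly formed stage, marked by Gpr17, Bcas1 and Enpp6, before they make myelin. Sox10, Olig2 and Myrf are the transcription factors best known for driving that sequence, and astrocytes are not a known source of Mog, Mag or Opalin.

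The libraries went against their labels in 2 genes that inflamed astrocytes are known to induce, and every direction given below is between libraries as labelled. Lcn2, a secreted lipocalin, had 15.0, 2.26 and 1.20 counts-per-million (CPM) in the 2X cytokine libraries and 570, 363 and 425 CPM in the 2X PBS libraries. In the 1X groups Lcn2 had 797, 11.5 and 3.85 CPM in replicates 1, 2 and 3 labelled 1X cytokine and 5.33, 1076 and 776 CPM in those labelled 1X PBS. Lcn2 was thus low in all libraries labelled 2X cytokine and high in all labelled 2X PBS, and replicate 1 of each 1X group stood apart from the other two of its label. Gfap, an intermediate filament of astrocytes, had 150, 119 and 113 CPM in libraries labelled 2X cytokine and 1141, 1043 and 1095 CPM in those labelled 2X PBS. Gfap had 725, 233 and 153 CPM in libraries labelled 1X cytokine and 189, 701 and 585 CPM in those labelled 1X PBS. Both genes split the libraries the same way. Whether titles were exchanged cannot be told from the labels and was not tested. If those of the 2X groups were, every direction of 2X cytokine against 2X PBS would turn round. Comparisons of 2X with 1X labels would then rest on other libraries, and their directions could stay or change. Because libraries went against their labels, each comparison is given in up to 3 edgeR quasi-likelihood fits. These use all 12 libraries (the main test), the 6 of the comparison alone, and 10 libraries without replicate 1 of either 1X group. The last fit leaves out 2 libraries for their values in these same data, so its calls on the 1X groups are a description. The sum of estimated counts per library ran from 1878418 to 5521679, so that 3 counts equal 0.543 to 1.60 CPM before scaling between libraries. The CPM values of genes and lists carry that scaling. Of the 30 genes Gpr17 alone had libraries under the floor of 3 counts.

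The 12 astrocyte markers summed to 23096 to 27116 CPM in libraries labelled 2X cytokine, 21574 to 23911 CPM in 2X PBS, 11819 to 26132 CPM in 1X cytokine and 8241 to 30006 CPM in 1X PBS, and none of them was at 0 in any library. In 3 libraries choroid plexus markers summed higher than astrocyte markers, at 29030 against 11819 CPM in replicate 1 of 1X cytokine, 26893 against 8631 CPM in replicate 2 of 1X PBS and 27368 against 8241 CPM in replicate 3 of 1X PBS. Most of the choroid plexus sum was 1 gene, Ttr, in every library, at 27229, 25334 and 25811 CPM in these 3. In replicates 2 and 3 of 1X PBS the erythrocyte genes, at 15761 and 64887 CPM, were above the astrocyte markers too. The 12 neuron markers summed to 123 to 188 CPM over the 12 libraries, and Slc17a7, the vesicular glutamate transporter of cortical excitatory neurons, was at 0 in every library. In transcripts-per-million (TPM), a scale that divides by transcript length, the 30 oligodendrocyte genes made up 0.422% to 0.731% of a library. They summed to 4220 to 7308 TPM, and to 2016 to 4137 TPM without Trf. In bulk RNA, fewer oligodendrocytes, less of a transcript per oligodendrocyte and a change of that transcript in the sorted astrocytes or other cells cannot be told apart.

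Levels can be compared between genes on the TPM scale. Trf, which encodes the iron carrier transferrin and is also made by the choroid plexus, had the highest level, with a mean of 2419 TPM over the 12 libraries and a range of 1691 to 3834 TPM, or 43.5% of the TPM of the 30 genes. Next came Cnp, a phosphodiesterase of the non-compact myelin, at a mean of 748 TPM, and Mbp, the basic protein that zips the cytoplasmic faces of myelin together, at 630 TPM. The range of Cnp, 413 to 1011 TPM, lay within that of Mbp, 294 to 1095 TPM, so the order of these neighbours is not resolved by the spread of the libraries. Car2, the carbonic anhydrase of oligodendrocytes, averaged 334 TPM, Cldn11, the claudin of myelin tight junctions, 259 TPM, and Mag, the adhesion molecule of the innermost myelin layer, 246 TPM. Mobp, a second basic protein of compact myelin, averaged 121 TPM, and Mog, a surface glycoprotein of the outermost layer, 109 TPM. Ranges of Mobp and Mog overlapped too, at 48.3 to 217 TPM and 53.3 to 163 TPM.

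The transcription factors and precursor genes lay lower on the TPM scale, with 1 exception. Olig1 averaged 76.9 TPM, level with Pllp and Mal, while Sox10 averaged 8.45 TPM, Nkx6-2 6.26 TPM, Myrf 5.96 TPM and Olig2 4.24 TPM. Olig1 and Olig2 are neighbouring basic helix-loop-helix genes, both known also from part of the astrocytes. Among the genes of precursors and newly formed cells, Bcas1 averaged 19.2 TPM, Enpp6 9.04 TPM, Pdgfra 4.32 TPM and Gpr17 0.79 TPM. All 4 together summed to 23.8 to 48.7 TPM in a library. The lowest mature gene was Gal3st1, the sulfotransferase that makes sulfatide, at 3.49 TPM.

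**Figure D1:**
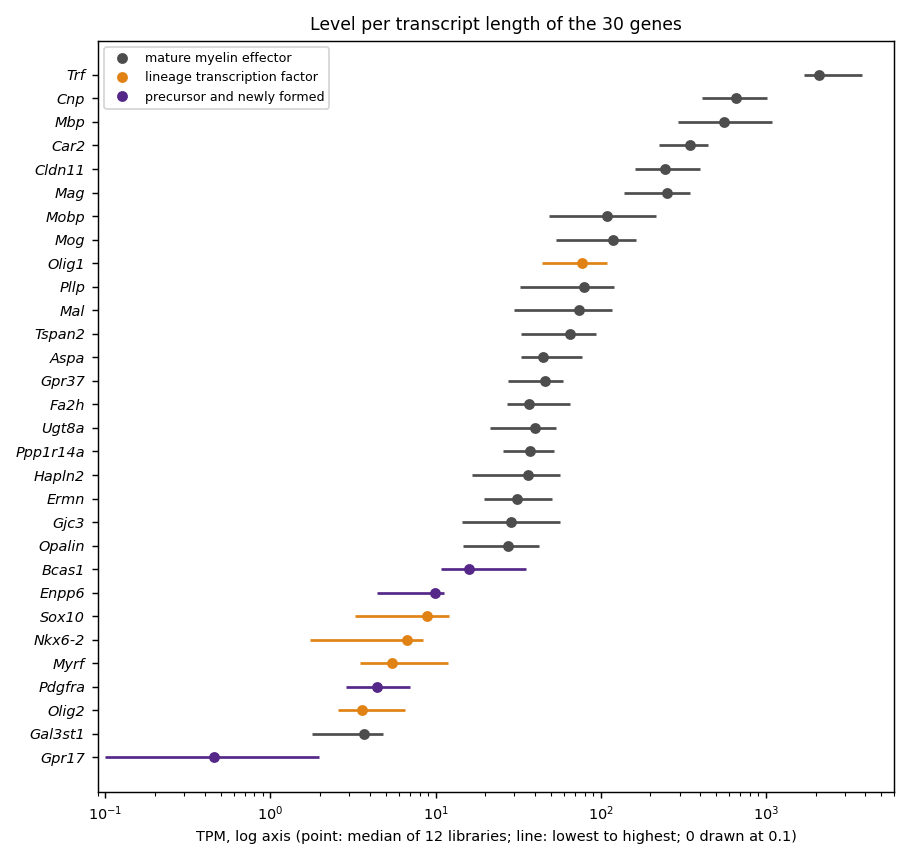
Level of each of the 30 genes in TPM on a log axis; points are medians over the 12 libraries, lines run from the lowest to the highest library, colours mark the 3 classes, and a value of 0 is drawn at 0.1. Trf stands highest, at 1691 to 3834 TPM, and Gpr17 lowest, with libraries at 0.

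In the libraries labelled 2X cytokine against those labelled 2X PBS, most genes of mature myelin had the higher mean in 2X cytokine, led by Mbp, Mobp and, among the transcription factors, Sox10, while Trf and Olig2 were lower. The means were higher for 25 of the 30 genes, against 49.5% of all genes tested, and the median log2 fold change of the 30 was 0.48, against -0.003 over all genes. In the fit of 12 libraries none of the 30 was called at an adjusted p of 0.05, where 0.0345% of all genes were; the lowest adjusted p among them was 0.255, and 14 of the 30 had an unadjusted p under 0.05. DESeq2 on the same 12 libraries called 2 of the 30, against 0.788% of all genes. In the fit of the 6 2X libraries 15 of the 30 were called, against 7.22% of all genes: 14 rose, against 1.95% of all genes, and 1 fell, against 5.27%. In the fit of 10 libraries 10 were called, against 7.14% of all genes: 9 rose, against 1.9%, and 1 fell, against 5.24%. Without any test, 16 genes had all 3 libraries labelled 2X cytokine above all 3 labelled 2X PBS, against 11.2% of all genes, and 2 had them below, against 14.1%.

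Mbp had 1139, 1327 and 670 CPM in libraries labelled 2X cytokine and 564, 426 and 374 CPM in those labelled 2X PBS. All 3 libraries of 2X cytokine lay above all 3 of 2X PBS, with the third closest to them. The means were 1045 ± 338 CPM in 2X cytokine and 455 ± 98.4 CPM in 2X PBS (SD, n = 3 each), a log2 fold change of 1.20 ± 0.32 (SE), not called in the fit of 12 (edgeR adjusted p = 0.306). It rose in the fit of the 6 2X libraries (SE 0.22, adjusted p = 0.0053) and in the fit of 10 (adjusted p = 0.0186). Mobp, the other basic protein, had 235, 298 and 150 CPM in 2X cytokine libraries and 126, 107 and 72.8 CPM in 2X PBS libraries. Again replicate 3 was the lowest of each label and the labels did not overlap, and Mobp rose in the fit of 6 by a log2 fold change of 1.16 (edgeR adjusted p = 0.0098) but not in the fit of 10 (adjusted p = 0.0545). Mog, the outer surface glycoprotein, had 107, 144 and 115 CPM in 2X cytokine and 84.6, 69.2 and 53.0 CPM in 2X PBS. Mog did not overlap between the labels and rose in the fit of 6 by 0.83 (edgeR adjusted p = 0.0076).

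Cnp spread little within either 2X label. It had 1555, 1467 and 1513 CPM in libraries labelled 2X cytokine and 995, 888 and 990 CPM in those labelled 2X PBS. The means, 1512 ± 43.9 CPM in 2X cytokine and 958 ± 60.5 CPM in 2X PBS (SD, n = 3 each), were apart by far more than the spread within either label. Its log2 fold change of 0.66 ± 0.24 (SE) was not called in the fit of 12 (edgeR adjusted p = 0.437), while with the 6 libraries alone Cnp rose with an SE of 0.08 (adjusted p = 0.0006). In the fit of 10 Cnp rose with an adjusted p of 0.0019.

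For 2 abundant membrane genes the labels overlapped. Mag had 316, 391 and 366 CPM in 2X cytokine libraries and 376, 212 and 198 CPM in 2X PBS libraries. The labels overlapped through replicate 1 of 2X PBS, and its log2 fold change of 0.46 was not called in the fit of 6 (edgeR adjusted p = 0.218), although without that library Mag was called (adjusted p = 0.0030). Cldn11 had 234, 287 and 263 CPM in 2X cytokine and 298, 251 and 244 CPM in 2X PBS. The 2 sets lay within the same range, with a log2 fold change of -0.01 ± 0.11 (SE) in the fit of 6. The 12 membrane and structure genes had a median log2 fold change of 0.70 in both the fit of 12 and the fit of 6. Of all 14490 genes tested 282 rose in the fit of 6, and of these 12 genes 8 rose. Besides Mbp, Mobp, Mog and Cnp these were Mal, a proteolipid of membrane rafts, by 0.89 (edgeR adjusted p = 0.0173), and Pllp, the related plasmolipin, by 0.91 (adjusted p = 0.0110). The others were Opalin, a transmembrane glycoprotein of oligodendrocytes, by 0.74 (edgeR adjusted p = 0.0229) and Tspan2, a tetraspanin, by 0.60 (adjusted p = 0.0321). Hapln2, a link protein at nodes of Ranvier, and Ermn, an actin-binding protein of late oligodendrocytes, had log2 fold changes of 0.54 and 0.09 in the fit of 6 and were not called; without replicate 1 of 2X PBS Hapln2 was (adjusted p = 0.0193).

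The ratio of 2 genes within a library needs no scaling between libraries; the pairs given here were chosen after their values were seen and are a description. CPM of Mbp over CPM of Cldn11 gave 4.86, 4.62 and 2.55 in 2X cytokine libraries and 1.90, 1.70 and 1.53 in 2X PBS libraries. All ratios labelled 2X cytokine lay above all labelled 2X PBS. Mbp over Mag gave 3.61, 3.40 and 1.83 in 2X cytokine and 1.499, 2.01 and 1.89 in 2X PBS, and Mobp over Mag gave 0.744, 0.763 and 0.409 in 2X cytokine and 0.334, 0.507 and 0.368 in 2X PBS. Both of these ratios overlapped between the labels through replicate 3 of 2X cytokine.

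**Figure D2:**
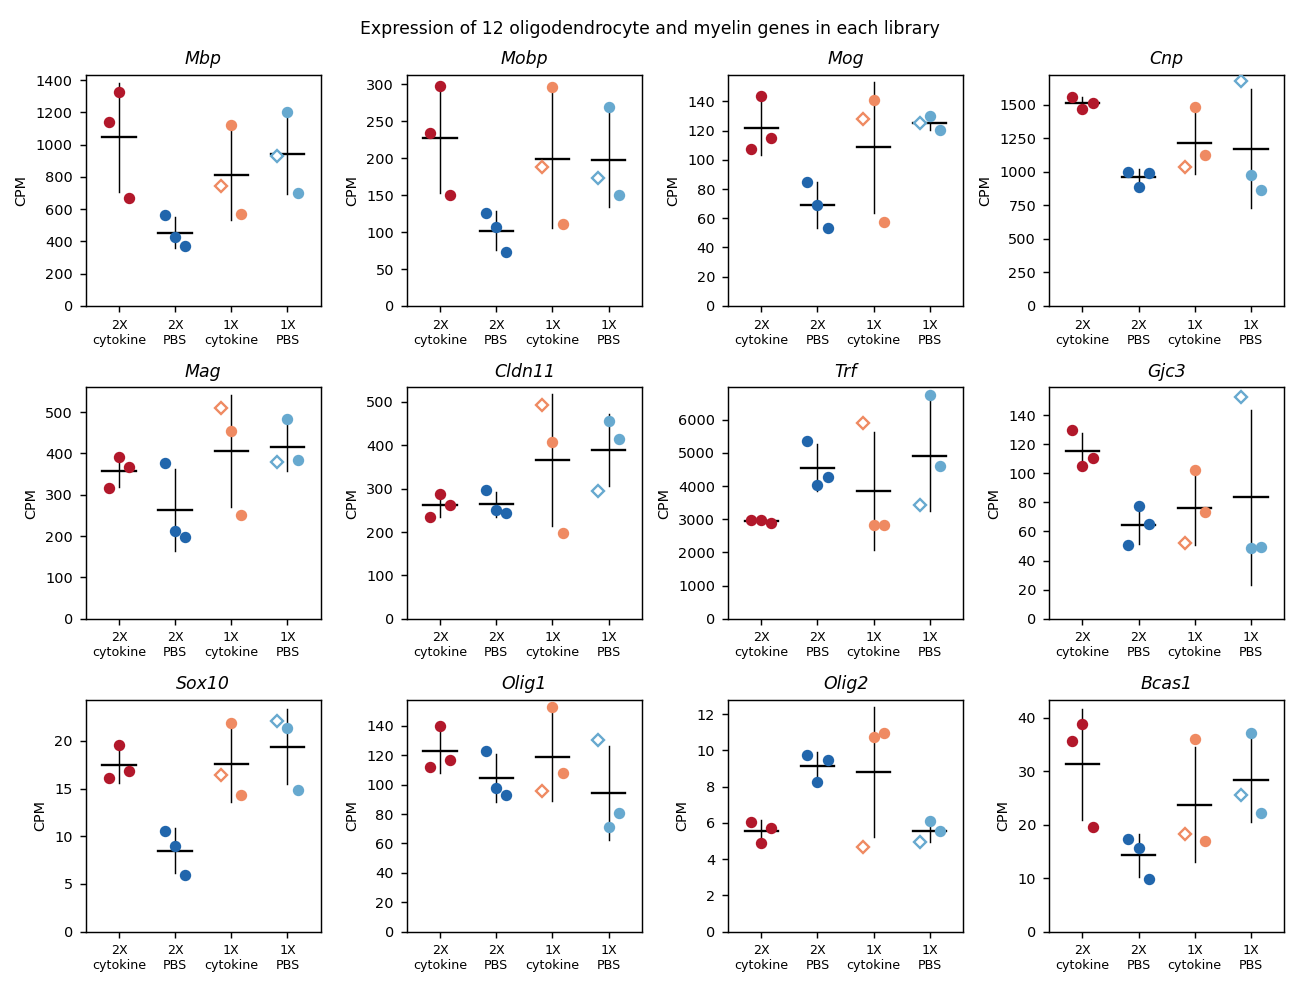
Level in CPM of 12 of the genes in each library, by label group; points are libraries, bars are means and lines the SD of 3 libraries, and open diamonds are replicate 1 of both 1X groups. Cnp lies at 1467 to 1555 CPM in 2X cytokine libraries and at 888 to 995 CPM in 2X PBS libraries, while Cldn11 overlaps between them.

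Genes of myelin lipid synthesis and of oligodendrocyte metabolism were mixed, with 2 of 6 higher and 1 lower in the fit of 6. Of all 14490 genes tested 282 rose and 764 fell in that fit. Ugt8a, which makes galactosylceramide, had 112, 126 and 117 CPM in libraries labelled 2X cytokine and 92.7, 63.9 and 55.1 CPM in those labelled 2X PBS, and it rose by a log2 fold change of 0.77 (edgeR adjusted p = 0.0107). Fa2h, the hydroxylase that acts on the fatty acids of these lipids, had 56.8, 53.9 and 70.8 CPM in 2X cytokine and 45.3, 38.0 and 36.1 CPM in 2X PBS, and rose by 0.62 in the fit of 6 (adjusted p = 0.0179). Both genes were without overlap between the labels. Gal3st1, the next enzyme of the same route, had 4.64, 3.77 and 2.10 CPM in 2X cytokine and 5.50, 2.11 and 3.85 CPM in 2X PBS, which overlap, on 7 to 13 estimated counts per library. Aspa, which releases acetate from N-acetylaspartate, and Car2 had log2 fold changes of 0.32 and 0.40 in the fit of 6 and were not called (edgeR adjusted p = 0.178 and 0.0844), though Car2 was without replicate 1 of 2X PBS (adjusted p = 0.0306).

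Trf went the other way. It had 2982, 2974 and 2898 CPM in libraries labelled 2X cytokine and 5367, 4040 and 4270 CPM in those labelled 2X PBS. The 3 libraries of 2X cytokine lay within a narrow band below all of 2X PBS, with means of 2951 ± 46.5 CPM in 2X cytokine and 4559 ± 709 CPM in 2X PBS (SD, n = 3 each). The log2 fold change of -0.63 ± 0.32 (SE) was not called in the fit of 12 (edgeR adjusted p = 0.578). Trf fell in the fit of 6 (adjusted p = 0.0034) and in the fit of 10 (adjusted p = 0.0134). Set against Mag in the same library, Trf stood at 9.45, 7.61 and 7.91 times Mag in 2X cytokine and at 14.3, 19.1 and 21.6 times Mag in 2X PBS. The 10 markers of choroid plexus, which also makes transferrin, were lower in 2X cytokine in 10 of 10 means, with summed levels of 3936 to 14575 CPM in 2X cytokine and 13790 to 15931 CPM in 2X PBS, none at 0, and none called in any of the 3 fits; their part in the Trf difference was not tested.

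The junction and signalling genes were Gjc3, Gpr37 and Ppp1r14a. Gjc3, the connexin 29 of myelinating glia, had 130, 105 and 111 CPM in libraries labelled 2X cytokine and 50.8, 77.3 and 65.4 CPM in those labelled 2X PBS. The labels did not overlap, and Gjc3 rose by 0.81 in the fit of 6 (edgeR adjusted p = 0.0051). Gpr37, a receptor that restrains oligodendrocyte differentiation, had 164, 183 and 175 CPM in 2X cytokine and 147, 125 and 115 CPM in 2X PBS, and rose by 0.44 in the fit of 6 (adjusted p = 0.0252). Ppp1r14a, an inhibitor of myosin phosphatase, had a log2 fold change of -0.01 in the fit of 6 and overlapped.

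Of the 5 transcription factors 1 was called in the fit of 6, where 1046 of all 14490 genes tested were. Sox10, required for terminal differentiation, had 16.1, 19.6 and 16.8 CPM in libraries labelled 2X cytokine and 10.6, 8.98 and 5.92 CPM in those labelled 2X PBS. It rose by a log2 fold change of 1.05 in the fit of 6 (edgeR adjusted p = 0.0171) and in the fit of 10 (adjusted p = 0.0184). Olig2, the lineage determinant, had 6.07, 4.90 and 5.70 CPM in 2X cytokine and 9.73, 8.27 and 9.47 CPM in 2X PBS. These did not overlap, in the opposite direction to Sox10, and the log2 fold change of -0.70 was not called (adjusted p = 0.157 in the fit of 6), on 13 to 47 estimated counts per library. Olig1 had 112, 140 and 117 CPM in 2X cytokine and 123, 97.5 and 92.7 CPM in 2X PBS. Olig1 overlapped, and its ratio to Olig2 in a library was 18.5, 28.5 and 20.5 in 2X cytokine and 12.7, 11.8 and 9.78 in 2X PBS. Nkx6-2, a homeobox factor of oligodendrocytes, and Myrf, the activator of myelin genes, had log2 fold changes of 0.17 and 0.36 in the fit of 6, with overlap.

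The genes of precursors and newly formed cells did not move as one. Pdgfra, the growth factor receptor of precursors and also a fibroblast gene, had 13.9, 15.4 and 14.7 CPM in libraries labelled 2X cytokine and 18.6, 15.3 and 27.5 CPM in those labelled 2X PBS, with a log2 fold change of -0.46 in the fit of 6 that was not called. Bcas1, a gene of newly formed oligodendrocytes, had 35.7, 38.8 and 19.5 CPM in 2X cytokine and 17.4, 15.7 and 9.77 CPM in 2X PBS. Bcas1 did not overlap and rose by 1.12 in the fit of 6 (edgeR adjusted p = 0.0252), with replicate 3 again the lowest of each label, as for Mbp and Mobp. Enpp6, a choline phosphodiesterase of newly formed cells, had 15.4, 15.4 and 17.7 CPM in 2X cytokine and 15.2, 11.4 and 9.47 CPM in 2X PBS. Enpp6 was higher without overlap but was not called (adjusted p = 0.250 in the fit of 6). Gpr17, an orphan receptor of cells about to differentiate, had 5.36, 6.40 and 0 CPM in 2X cytokine and 0.42, 1.06 and 1.18 CPM in 2X PBS. The library at 0 and the others of its label span the whole range of Gpr17 in the 2X libraries, so no direction could be read at this depth.

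**Figure D3:**
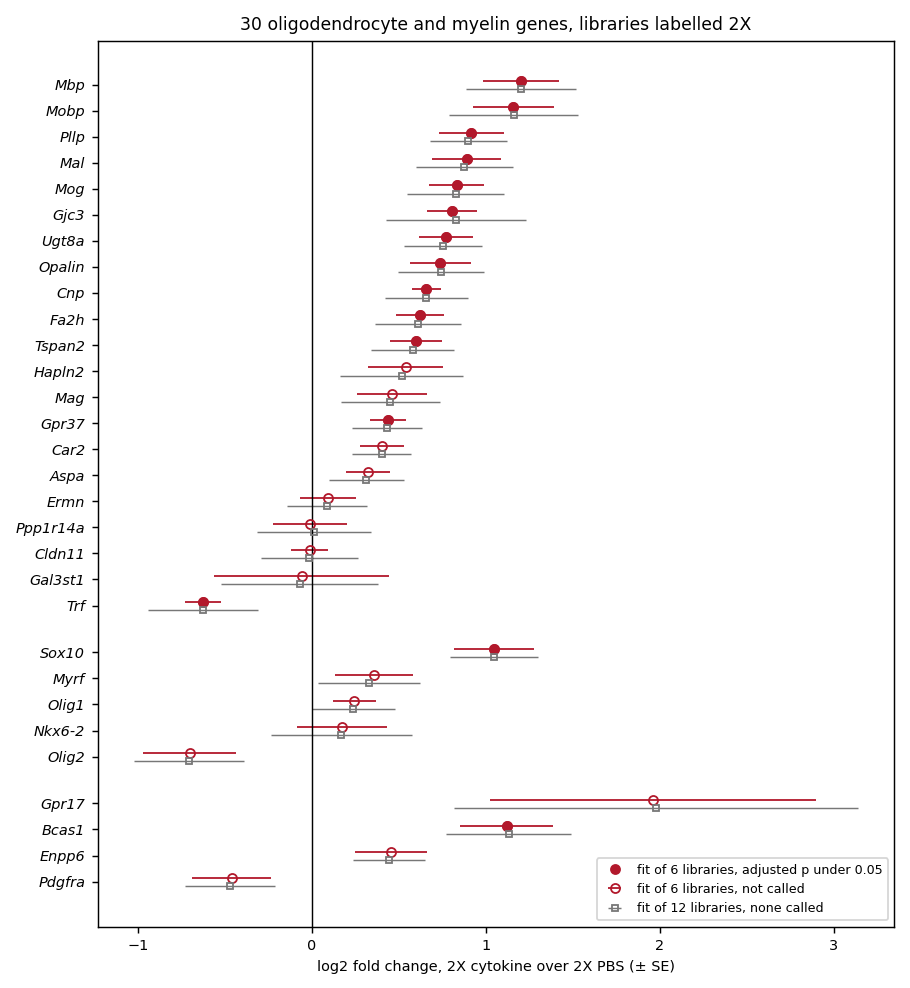
Log2 fold change of the 30 genes, libraries labelled 2X cytokine over libraries labelled 2X PBS, with SE, ordered by class; red circles are the edgeR fit of 6 libraries, filled where the adjusted p is under 0.05, and grey squares the fit of 12, in which none is called. In the fit of 6, 14 filled circles lie above 0 and 1, Trf, below.

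How firmly each gene was called in the 6 2X libraries depended on single libraries. With each of the 6 left out in turn, the edgeR test called 6 to 17 of the 30 genes. Without replicates 1, 2 and 3 of 2X cytokine it called 14, 9 and 13 of the 30, against 5.8%, 6.25% and 6.28% of all genes. Without those of 2X PBS it called 17, 6 and 7, against 5.48%, 4.3% and 4.6%. Mbp, Mobp, Mog, Cnp, Trf and Gjc3 were called in all 6 of these fits, Pllp in 5, Ugt8a in 4, and Mal, Fa2h and Sox10 in 3. Opalin, Tspan2, Gpr37 and Bcas1 were called in 2, and Mag, Hapln2, Car2 and Gpr17, which the fit of 6 did not call, in 1.

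Genes of the same lineage outside the 30 are given for comparison. Over all 14490 genes tested, 282 rose and 764 fell in the fit of 6 libraries. Among 24 other mature oligodendrocyte genes, 21 had the higher mean in libraries labelled 2X cytokine, with a median log2 fold change of 0.43, and in the edgeR fit of 6 libraries 6 rose and 1 fell, while none was called in the fit of 12. Septin4, a filament protein of the myelin sheath and of other glia, averaged 1431 ± 234 CPM in 2X cytokine and 809 ± 133 CPM in 2X PBS (SD, n = 3 each), and Plekhb1 averaged 497 ± 18.0 CPM in 2X cytokine and 327 ± 12.7 CPM in 2X PBS. Both rose in the fit of 6, by log2 fold changes of 0.82 and 0.60. Apod, a lipid-binding lipocalin, fell by 0.69 in that fit (adjusted p = 0.035). Of 23 other precursor and early lineage genes 19 could be tested, 16 had the higher mean in 2X cytokine, and Susd5 and the matrix glycoprotein gene Tnr rose in the fit of 6 by 0.86 and 0.91. Of 14 genes of sphingolipid and galactolipid metabolism none was called in any of the 3 fits, and their median log2 fold change was 0.02.

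Markers of other cell types moved with the same labels, and their part in the results on myelin genes was not tested. The counts below stand beside 282 genes that rose and 764 that fell in the fit of 6, of all 14490 tested. The 9 monocyte and macrophage genes tested were lower in 2X cytokine in 9 of 9 means and summed, with the tenth, to 104 to 214 CPM in 2X cytokine and 554 to 565 CPM in 2X PBS; 6 fell in the fit of 6, and Ccr2, Ly6c2, Plac8 and Ms4a7 were at 0 in some libraries. The 12 microglia genes were lower in 11 of 12 means, summed to 428 to 857 CPM in 2X cytokine and 855 to 1196 CPM in 2X PBS, and 6 fell in the fit of 6. Of 10 neutrophil genes, which summed to 9.60 to 159 CPM in 2X cytokine and 197 to 237 CPM in 2X PBS, 6 could be tested and 3 fell in the fit of 6; Cxcr2, Ly6g, Mpo, Ngp, Camp, Retnlg and Elane were at 0 in some libraries. The 10 ependymal genes were higher in 10 of 10 means, summed to 1508 to 1649 CPM in 2X cytokine and 1137 to 1299 CPM in 2X PBS, and 3 rose in the fit of 6. The 7 erythrocyte genes were higher in 7 of 7 means and summed to 2532 to 13454 CPM in 2X cytokine and 514 to 3570 CPM in 2X PBS, with none called. For mural cells and fibroblasts, 8 of 12 means were lower, the sums were 4003 to 6116 CPM in 2X cytokine and 5179 to 6159 CPM in 2X PBS, and 5 genes fell in the fit of 6. No gene of the microglia, ependymal, erythrocyte or mural and fibroblast lists was at 0 in any library.

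**Figure D4:**
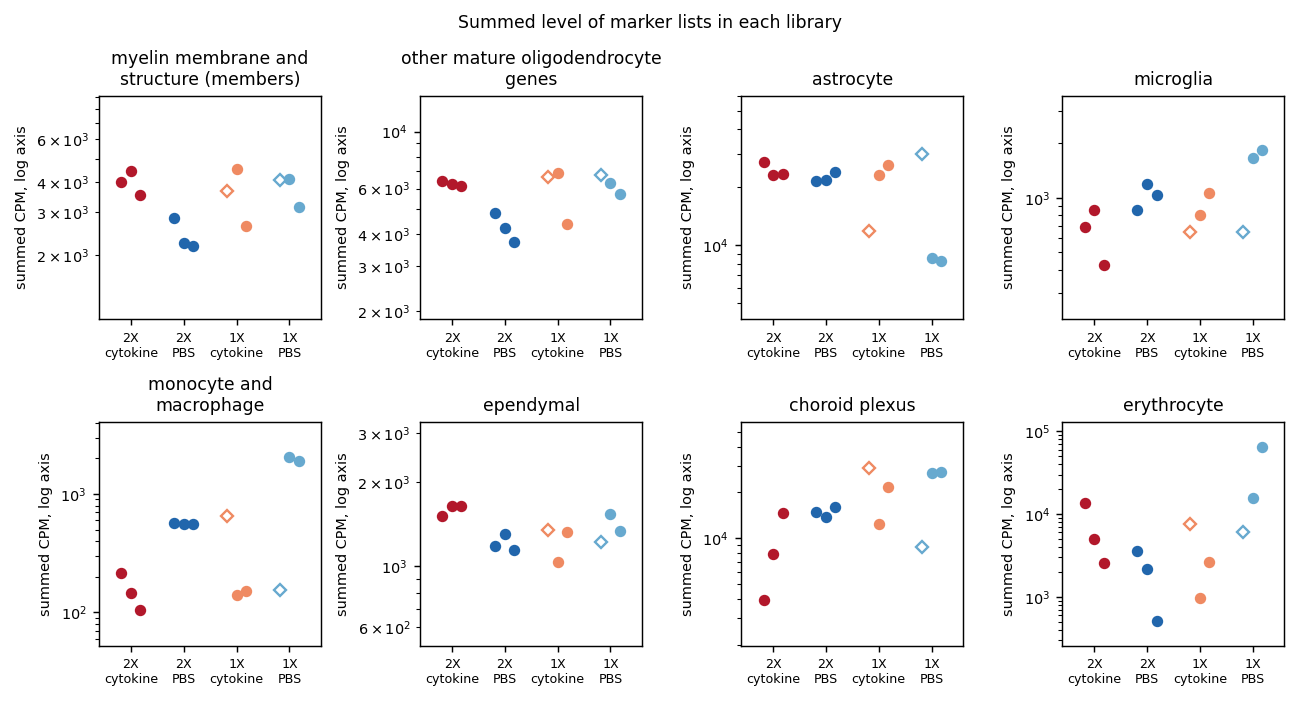
Summed CPM of gene lists in each library, on a log axis, by label group; points are libraries and open diamonds replicate 1 of both 1X groups. The 12 myelin membrane and structure genes sum to 3543 to 4458 CPM in 2X cytokine libraries and 2175 to 2849 CPM in 2X PBS libraries, and the monocyte and macrophage list sums to 104 to 214 CPM in 2X cytokine libraries and 554 to 565 CPM in 2X PBS libraries.

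The sequence before the start of 5 of the myelin genes is shown: Mobp, Mog, Cnp and Opalin rose in the fit of 6 and Mag was not called in it. Without replicate 1 of 2X PBS, Mag was called (adjusted p = 0.0030) and Opalin was not (adjusted p = 0.0563), so the sequences are not set against each other as changed and unchanged. Each is the stretch of 200 bases from 250 to 51 before the gene's RefSeq start (GRCm38.p6), written 5′ to 3′ on the strand of the gene, and capitals mark matches, on either strand, to any of 6 motifs: AACAAT and ACAAAG of SOX factors, CTGGCAC and CTGGTAC of MYRF, and the E-boxes CAGCTG and CATCTG.
Mobp, chr9:120149492-120149691, plus strand: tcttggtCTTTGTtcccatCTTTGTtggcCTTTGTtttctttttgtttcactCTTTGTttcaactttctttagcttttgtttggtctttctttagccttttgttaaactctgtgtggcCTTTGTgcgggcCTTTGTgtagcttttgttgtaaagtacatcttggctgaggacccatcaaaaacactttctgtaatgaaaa
Mog, chr17:37023449-37023648, minus strand: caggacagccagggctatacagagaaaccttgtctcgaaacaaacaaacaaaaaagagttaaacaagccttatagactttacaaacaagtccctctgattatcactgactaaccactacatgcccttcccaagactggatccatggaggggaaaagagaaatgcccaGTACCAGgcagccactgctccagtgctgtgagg
Cnp, chr11:100574689-100574888, plus strand: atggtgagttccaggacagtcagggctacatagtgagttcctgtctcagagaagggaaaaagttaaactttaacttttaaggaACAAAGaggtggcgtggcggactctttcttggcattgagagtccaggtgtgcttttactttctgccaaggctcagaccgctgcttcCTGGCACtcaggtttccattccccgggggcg
Opalin, chr19:41077164-41077363, minus strand: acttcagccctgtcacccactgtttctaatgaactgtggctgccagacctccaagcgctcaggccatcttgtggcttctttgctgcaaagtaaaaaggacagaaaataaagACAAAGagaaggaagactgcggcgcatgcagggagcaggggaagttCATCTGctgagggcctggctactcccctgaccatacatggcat
Mag, chr7:30914914-30915113, minus strand: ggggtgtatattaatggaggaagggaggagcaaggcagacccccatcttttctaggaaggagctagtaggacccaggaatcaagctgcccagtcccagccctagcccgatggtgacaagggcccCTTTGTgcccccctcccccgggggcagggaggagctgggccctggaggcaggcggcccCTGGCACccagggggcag
ACAAAG or its reverse complement was found 6 times in the Mobp stretch and 1 time each in Opalin, Mag and Cnp. CTGGCAC was found 1 time each in Mag and Cnp, CTGGTAC 1 time in Mog, and CATCTG 1 time in Opalin. Windows from 250 before to 50 after the start were at hand for 21 of the 30 genes, 26 windows in all. Of these 26, 4 held AACAAT, 6 ACAAAG, 5 CTGGCAC, 1 CTGGTAC, 3 CAGCTG and 7 CATCTG. Mag and Gal3st1 each had a pair of windows that overlap for the most part. A match held by both of these Mag windows counts more than once, and the Gal3st1 windows held none. By gene, 4 of the 21 held AACAAT, 5 ACAAAG, 4 CTGGCAC, 1 CTGGTAC, 3 CAGCTG and 7 CATCTG. Over all 32851 windows of the mouse table the shares were 10.7% for AACAAT, 18.7% for ACAAAG, 5.01% for CTGGCAC, 2.24% for CTGGTAC, 16.3% for CAGCTG and 17.2% for CATCTG. A match is a description of the letters and not a binding site.

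Mbp is transcribed from 2 groups of starts, and the deposited transcript table allowed them to be told apart as far as the kallisto model assigns reads. The 11 transcripts of the downstream cluster, among them those of the classic myelin basic proteins, summed to 907, 1089 and 545 TPM in libraries labelled 2X cytokine and 442, 338 and 289 TPM in those labelled 2X PBS. Mbp-214, annotated without a protein, starts further downstream and had 0 to 3.95 TPM over the 12 libraries. The 4 transcripts from the upstream cluster, known as the Golli starts, summed to 1.46 to 7.16 TPM over the 12 libraries. Nearly all Mbp signal thus came from the downstream starts in every library. A single transcript, Mbp-211, took 66.8% to 78.8% of the Mbp TPM.

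Between the libraries labelled 1X cytokine and those labelled 1X PBS no difference in the 30 genes was detectable over the spread within these labels. In the edgeR fit of 12 libraries 0 of 30 genes and 0 of all genes were called (783 genes passed an unadjusted p of 0.05, and 2 genes were called by DESeq2), and the fit of the 6 1X libraries called 0 as well. Means were higher in 1X cytokine for 12 of 30, against 48.2% of all genes, with a median log2 fold change of -0.07. Pllp alone was without overlap, with 60.5, 52.6 and 36.8 CPM in 1X cytokine libraries and 65.0, 64.3 and 62.4 CPM in 1X PBS libraries, lower in 1X cytokine. Of all genes 6.18% were without overlap, 2.89% higher and 3.29% lower.

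Replicate 1 of each 1X group decided several of these values. Gjc3 had 51.9, 103 and 73.6 CPM in libraries labelled 1X cytokine and 153, 48.5 and 49.2 CPM in those labelled 1X PBS. Trf had 5888, 2832 and 2821 CPM in 1X cytokine and 3431, 6741 and 4592 CPM in 1X PBS. In both genes replicate 1 of each label lay closer to replicates 2 and 3 of the other label than to those of its own. The fit of 10 left those 2 libraries out for their values in these same data, which narrows the spread within the 1X labels. It keeps 2 libraries of each 1X label, so its adjusted p-values describe the values and are not a fair test. This fit called 23.9% of all genes, 11.8% higher and 12% lower, and 7 of the 30, a share near that background. The 5 that rose were Gjc3 by 0.86 (edgeR adjusted p = 0.006), Olig2 by 0.90 (adjusted p = 0.044), Olig1 by 0.78 (adjusted p = 0.007), Cnp by 0.51 (adjusted p = 0.015) and Gpr37 by 0.46 (adjusted p = 0.028). Trf fell by 1.00 (edgeR adjusted p = 0.001) and Ugt8a fell by 0.79 (adjusted p = 0.011). Mbp, with 745, 1120 and 572 CPM in libraries labelled 1X cytokine and 928, 1203 and 701 CPM in those labelled 1X PBS, overlapped between the labels and was not called in any of the 3 fits, with a log2 fold change of -0.16 ± 0.34 (SE) in the fit of 10. In that fit 11 of the 12 astrocyte genes rose and 1 fell, with sums of 23263 and 26132 CPM in replicates 2 and 3 of 1X cytokine and 8631 and 8241 CPM in those of 1X PBS. Monocyte and macrophage genes summed to 139 and 151 CPM in these 1X cytokine libraries and 2039 and 1891 CPM in these 1X PBS libraries, with 8 of 9 lower, and erythrocyte genes to 955 and 2634 CPM in 1X cytokine and 15761 and 64887 CPM in 1X PBS, with 5 of 7 lower. The part of these cells in the fit of 10 was not tested.

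Markers of other cells spread widely within the 1X labels. Monocyte and macrophage genes summed to 139 to 651 CPM in libraries labelled 1X cytokine and 156 to 2039 CPM in those labelled 1X PBS, and choroid plexus genes to 12319 to 29030 CPM in 1X cytokine and 8692 to 27368 CPM in 1X PBS. Erythrocyte genes summed to 955 to 7661 CPM in 1X cytokine and 6134 to 64887 CPM in 1X PBS. The part of these lists, and of the astrocyte sums given above, in the 1X values was not tested.

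The libraries labelled 2X PBS, set against those labelled 1X PBS, had lower means of most myelin genes; these are the same 2X PBS libraries as in the first comparison. Means were higher in 2X PBS for 3 of 30 genes, against 45.5% of all genes, and the median log2 fold change was -0.67, against -0.03 over all genes. The edgeR fits of 12 and of 6 called 0 of 30 and 0 of all genes, although 18 of the 30 and 914 of all genes had an unadjusted p under 0.05 in the fit of 12, and DESeq2 called 17 genes. Without overlap 17 of the 30 were lower, against 6.05% of all genes, and Olig2 was higher, against 5.4%. Sox10 had 10.6, 8.98 and 5.92 CPM in 2X PBS libraries and 22.1, 21.3 and 14.8 CPM in 1X PBS libraries. In the fit of 10 libraries 13 of the 30 fell, against 9.01% of all genes, and none rose, against 10.1%. They were Mbp by a log2 fold change of -1.06, Sox10 by -1.09, Fa2h by -0.95, Ugt8a by -0.94, and Mog, Cldn11, Mal, Pllp, Ermn, Opalin, Tspan2, Aspa and Car2 by -0.42 to -0.94. With replicate 1 of 1X PBS alone left out, 4 of the 30 fell, Sox10, Fa2h, Ugt8a and Pllp, against 2.71% of all genes. All 12 astrocyte genes rose in the fit of 10, with sums of 21574 to 23911 CPM in 2X PBS and 8631 and 8241 CPM in replicates 2 and 3 of 1X PBS. Monocyte and macrophage genes summed to 554 to 565 CPM in 2X PBS and 2039 and 1891 CPM in those 1X PBS libraries, with 6 of 9 lower, and erythrocyte genes to 514 to 3570 CPM in 2X PBS and 15761 and 64887 CPM in 1X PBS, with 5 of 7 lower. Their part in the lower myelin values was not tested.

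Between the libraries labelled 2X cytokine and those labelled 1X cytokine none of the 30 was called in any of the 3 fits; the fit of 12 called 0.0276% of all genes, and no member of the 30 had an unadjusted p under 0.05 in it. Means were higher in 2X cytokine for 14 of 30, against 47.7% of all genes. Gjc3 was higher without overlap, against 5.71% of all genes, and Enpp6 was lower, against 6.76%.

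Whether the 2X cytokine difference was larger than the 1X cytokine difference was tested as an interaction. In the edgeR fit of 12 none of the 30 and none of all genes was called (12 of the 30 passed an unadjusted p of 0.05, and 13 genes overall were called by DESeq2), with the lowest adjusted p of the 30 at 0.674. The fit of 10 called 9.64% of all genes, 518 genes higher and 879 lower, and 4 of the 30, a share not far above that background. They were Ugt8a with a difference of 1.57 in log2 fold change (edgeR adjusted p = 0.002), Pllp 1.41 (adjusted p = 0.009), Opalin 1.27 (adjusted p = 0.025) and Olig2 -1.58 (adjusted p = 0.021). The first 3 are genes of mature myelin, as are 21 of the 30. For Mbp the difference was 1.38 ± 0.45 (SE), which was not called (adjusted p = 0.073). In the same fit of 10 all 12 astrocyte genes were called with a lower difference, at a median of -1.40 and a range of -2.14 to -0.82. There 5 of 7 erythrocyte genes, with a list median of 6.27, were called with a higher difference. So were 5 of 10 ependymal genes and 4 of 9 monocyte and macrophage genes. Some endothelial and neutrophil genes were called higher too, such as Cldn5 at 3.03 and S100a8 at 4.27. Mural and fibroblast genes were called in both directions, and the part of these lists was not tested.

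Across all 4 groups, 2X PBS had the lowest mean in 23 of the 30 genes. These were 18 of the 21 mature genes, 2 of the 5 transcription factors and 3 of the 4 precursor genes. The share over all genes was not computed, and these are the same 2X PBS libraries as in the comparisons above. The highest mean was in 1X PBS for 13 genes, in 2X cytokine for 9, in 1X cytokine for 6 and in 2X PBS for 2, Olig2 and Pdgfra. For Mbp the order ran from 1045 ± 338 CPM in 2X cytokine through 944 ± 251 CPM in 1X PBS and 812 ± 280 CPM in 1X cytokine to 455 ± 98.4 CPM in 2X PBS (SD, n = 3 each). The first 3 of these lay within each other's spread, and replicate 3 of 1X cytokine, at 572 CPM, came close to replicate 1 of 2X PBS, at 564 CPM.

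**Figure D5:**
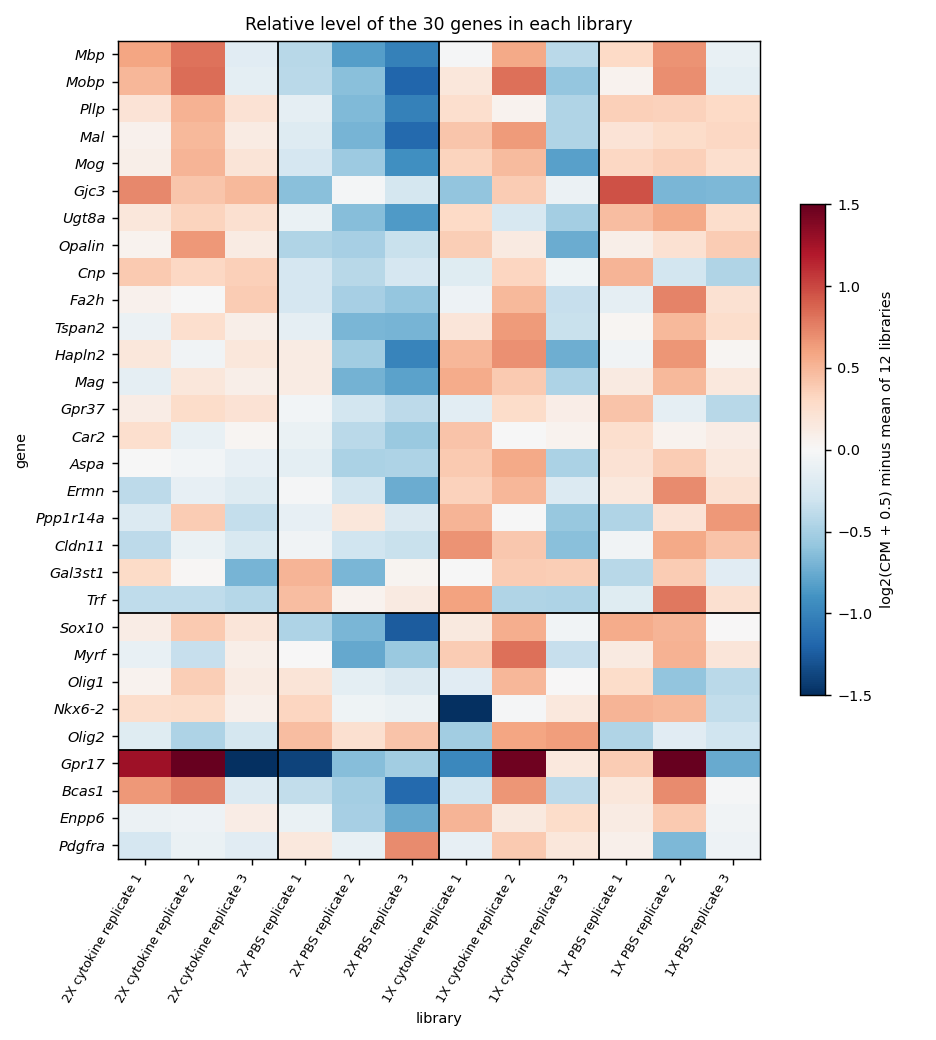
Each of the 30 genes in each library as log2(CPM + 0.5) minus its mean over the 12 libraries, with colour limited to ±1.5, genes by class and libraries by label group and replicate. The 3 columns labelled 2X PBS are below the mean in most mature genes, while Trf is above it in all 3 of them, in replicate 1 of 1X cytokine and in replicates 2 and 3 of 1X PBS, and below it in the other 6 libraries.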

How the data were processed

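SMART-Seq2 libraries were quantified by the submitters with kallisto 0.46.1 against GRCm38, per the submitters' processing notes and the labels. The deposited tables hold, per the file headers, an estimated count, TPM, length and effective length for each of 142604 transcripts, and the labels name no strand setting, so reads of overlapping and antisense genes may be shared. Estimated counts were summed per gene by symbol and identifier and rounded; TPM was summed unrounded. CPM divides a gene's count by the library's sum of counts over the tested genes times its TMM factor, a scaling between libraries of 0.932 to 1.04. edgeR 4.0.16 (R 4.3.3) fitted quasi-likelihood models with filterByExpr, TMM scaling and Benjamini-Hochberg adjustment over 14490 genes, threshold 0.05, 1 coefficient per group; SE is the log2 fold change over the root of F. limma 3.58.1 and DESeq2 1.42.0 served as alternatives, and the procedure was tested on simulated data. DESeq2 is also named in the submitters' processing notes. Promoter windows came from RefSeq, and 98.1% of gene identifiers matched GENCODE M21.

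The 30 genes, the lists and the fit without 2 libraries were chosen with earlier results of these data known. All 30 could be named; of other lists, called genes, the lowest p and the highest level. Libraries were grouped by title. No library was a repeat of another: replicates differed by 3.39 to 52.8 times counting noise (chi-square per degree of freedom). Floors cover counting error only.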

Additional observations from a re-analysis of the deposited data

Results flagged for a closer look

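Pllp, the plasmolipin of myelin, was flagged by a rule on these same values: each pair of labels was without overlap, in opposite directions. Its log2 fold change was 0.90 for 2X cytokine over 2X PBS and -0.34 for 1X cytokine over 1X PBS, a difference of 1.24. The share of all genes that meet this rule was not computed. The interaction was tested and was not called in the edgeR fit of 12 libraries (adjusted p = 0.702), and it was called in the fit of 10 libraries at 1.41 (adjusted p = 0.009). Pllp had 58.2, 73.1 and 58.8 CPM in libraries labelled 2X cytokine, 46.1, 31.9 and 24.9 CPM in 2X PBS, 60.5, 52.6 and 36.8 CPM in 1X cytokine and 65.0, 64.3 and 62.4 CPM in 1X PBS.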

How the results depend on the processing

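The count of the 30 genes called for 2X cytokine against 2X PBS, 0 in the edgeR fit of 12 libraries, was 2 with DESeq2, 8 with no filter on low counts, 15 in the fit of the 6 libraries alone, 16 in those 6 with DESeq2 (added after seeing the data) and 10 in the fit of 10, and it ran from 0 to 0 over the 12 fits that left out 1 library while with 1 of the 6 left out it was 14, 9 and 13 without replicates 1, 2 and 3 of 2X cytokine and 17, 6 and 7 without those of 2X PBS. It was 0 under the other settings run. For 1X cytokine against 1X PBS it was 7 in the fit of 10 and 0 to 0 with 1 library left out. For 2X PBS against 1X PBS it was 5 with no filter, 13 in the fit of 10 and 0 to 4 with 1 library left out, and for the difference of responses 3, 4 and 0 to 0. Genes called for 2X cytokine against 2X PBS numbered 5, against 114 with DESeq2, 1046 in the 6 alone, 935 there with DESeq2, 460 with no filter, 1035 in the fit of 10, 0 to 141 with 1 library left out (141 without replicate 1 of 1X PBS) and 623 to 910 in the 6 (840, 905 and 910 without replicates 1, 2 and 3 of 2X cytokine, and 794, 623 and 666 without those of 2X PBS). For 1X cytokine against 1X PBS they numbered 0, against 2 with DESeq2, 5 and 6 with limma-trend (TPM plus 0.1 and plus 1 before log2), 251 with no filter, 3456 in the fit of 10 and 0 to 1071 with 1 library left out, the highest without replicate 1 of 1X PBS. For 2X cytokine against 1X cytokine they numbered 4, against 8 with DESeq2, 0 in the 6 alone, 9 with limma-trend (plus 0.1), 0 at a mean CPM of at least 10, 193 with no filter and 0 to 4 with 1 library left out. For 2X PBS against 1X PBS they numbered 0, against 17 with DESeq2, 1 with limma-trend (plus 1), 97 with no filter, 2763 in the fit of 10 and 0 to 1061 with 1 library left out, again the highest without replicate 1 of 1X PBS. The difference of responses gave 0, against 13 with DESeq2, 2 and 1 with limma-trend (plus 0.1, plus 1), 70 with no filter, 1397 in the fit of 10 and 0 to 16 with 1 library left out. Replicates with the same number did not deviate together in every pair. The outlying replicate 1 of each 1X group weighs on these deviations, so whether same-numbered replicates share an origin cannot be told. With the replicate block 2 genes were called in the 2X comparison and 0 between the cytokine groups, and none of the 30 in any comparison. No called gene of the 30 changed direction under any setting run in the 2X comparison. For 1X cytokine against 1X PBS Gjc3, at -0.13 in log2 fold change, was 0.17 and 0.16 with limma-trend (plus 0.1, plus 1), 0.86 in the fit of 10, and -0.41 to 0.63 with 1 library left out (0.12 without replicate 1 of 1X cytokine, 0.63 without replicate 1 of 1X PBS). Cnp, at 0.05, was -0.12 to 0.40 and Gpr37, at 0.08, -0.087 to 0.35 with 1 library left out. Limma-trend on TPM (plus 0.1, plus 1) moved the median log2 fold change of all genes, relative to the fit of 12, by 0.15 and 0.13 for 1X cytokine against 1X PBS, 0.20 and 0.18 for 2X PBS against 1X PBS and -0.13 and -0.11 for the difference. The cause of these changes was not tested. Counts were few for Gpr17, Gal3st1, Nkx6-2 and Olig2, at 0, 7, 8.84 and 13 in the lowest library.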
